A study of Homo sapiens with 6 samples.

Results

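The secretory calcium-binding phosphoprotein (SCPP) genes of chromosome 4 were followed with and without TGF-β1 in HK-2, a line of immortalised epithelial cells from the human kidney proximal tubule. The members were the 10 genes ODAM, AMTN, AMBN, ENAM, ODAPH, SPARCL1, DMP1, IBSP, MEPE and SPP1, taken by name from the 41497 named entries of the count tables, with 1 entry for each name. The family was chosen by the measured values themselves, the large rises of AMTN and ODAPH between these libraries, so the rises of those 2 genes are described below without a test. The control group was 3 libraries of untreated wild-type HK-2 cells, and the TGF-β1 group was 3 libraries of the same line after TGF-β1. All 6 libraries were taken at 24 h. HK-2 is a single cell line. The labels give no dose for these libraries and say that the line was grown with fetal bovine serum, whereas the study's methods describe its TGF-β experiments in general at a single dose in medium without serum.

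SCPP genes encode secreted, mostly acidic proteins, many of which are phosphorylated on serine and bind calcium. They arose by tandem duplication from an ancestor related to SPARCL1, and most of the human genes still lie in clusters on chromosome 4. Members of the enamel branch are made by ameloblasts, the cells that lay down tooth enamel, and members of the bone and dentin branch are made by osteoblasts and odontoblasts. In the kidney the best known member is SPP1 (osteopontin), which tubular cells secrete into urine and which inhibits the growth of calcium crystals. TGF-β1 drives fibrosis of the kidney and acts through SMAD proteins, with AP-1 and RUNX factors among their partners on DNA.

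On GRCh38 the members formed 3 position groups. ODAM (chr4:70195725-70204576), AMTN (chr4:70518569-70532743), AMBN (chr4:70592256-70607288) and ENAM (chr4:70627471-70646824) lay in the first. ODAPH (chr4:75554997-75565893) lay alone, 4.91 Mb beyond ENAM. SPARCL1 (chr4:87473335-87529376), DMP1 (chr4:87650280-87664357), IBSP (chr4:87799554-87812435), MEPE (chr4:87821398-87846792) and SPP1 (chr4:87975714-87983411) formed the third, 11.9 Mb beyond ODAPH. SPARCL1 was on the minus strand and the other members were on the plus strand. DMP1 overlapped another entry, LOC105377323, and no other member overlapped an entry.

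The DNA before the starts of the 3 members with many reads is shown because these genes moved in different directions. Sequences are from RefSeq on GRCh38.p14, plus strand, 5′ to 3′, with matches in capitals. The letters searched on both strands were CAGAC (the SMAD box), TGANTCA (the AP-1 site) and TGTGGT (the RUNX site), so GTCTG and ACCACA are matches read on the minus strand. The windows of AMTN (chr4:70518319-70518539) and SPP1 (chr4:87975464-87975649) end where the first annotated exon begins. For ODAPH the window lay within an exon of a longer transcript, and the stretch with its 2 AP-1 matches (chr4:75556004-75556026) is shown alone.
AMTN: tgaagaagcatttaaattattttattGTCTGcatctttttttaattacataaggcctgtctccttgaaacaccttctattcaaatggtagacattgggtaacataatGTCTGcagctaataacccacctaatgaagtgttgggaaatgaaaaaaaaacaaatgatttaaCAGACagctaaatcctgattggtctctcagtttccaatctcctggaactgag
ODAPH: TGAATCAggctgctggTGACTCA
SPP1: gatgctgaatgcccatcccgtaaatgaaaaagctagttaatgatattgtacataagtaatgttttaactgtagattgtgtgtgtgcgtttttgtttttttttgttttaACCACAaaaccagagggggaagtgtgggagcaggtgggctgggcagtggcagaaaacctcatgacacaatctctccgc

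Over the 250 bases before each RefSeq start, AMTN held 3 SMAD box matches, at 224, 143 and 81 bases before the start, and neither of the other motifs. ODAPH held 1 SMAD box match at 143 bases, 2 AP-1 matches at 62 and 46 bases and 1 RUNX match at 91 bases. SPP1 held 1 SMAD box match at 43 bases and 1 RUNX match at 142 bases. The SMAD box match of SPP1 lies past the start of an annotated exon, so it is outside the stretch shown. Of 35116 windows of this length before RefSeq starts, 38.0% held the SMAD box letters, 6.57% the AP-1 letters and 11.0% the RUNX letters. A match describes the letters of the window, and binding at these sites was not measured. Among the members with few or no reads, ODAM held 1 SMAD box match and 1 AP-1 match, DMP1 held 1 RUNX match, and MEPE held 2 SMAD box matches before one of its starts and 1 RUNX match before the other, while no motif was found in the windows of AMBN, ENAM, SPARCL1 and IBSP.

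The libraries held 21.9 to 26.9 M counts (M, megacounts). Pearson correlations of log2 CPM lay at 0.991 to 0.992 among control libraries, at 0.989 to 0.991 among TGF-β1 libraries and at 0.961 to 0.966 across the groups. Control replicate 3 had the most named genes with a count, 22049, against 20911 to 21533 in the other 5 libraries. Nothing in the labels says that the replicates came from separate cultures, so the p values measure the spread between these libraries, which may be technical. Of 10 proximal tubule markers, 7 passed the count filter, 3 of them higher and 4 lower after TGF-β1. Over all genes that passed it, 22.2% were higher and 22.1% lower at the threshold given below. The list summed to 12049 to 13426 reads per control library and 10320 to 14429 per TGF-β1 library. PAX8, a transcription factor of kidney epithelium, went from 17685 reads to 10775 with TGF-β1, and KRT18, an epithelial keratin, from 14240 to 21627. AQP1, a water channel, rose from 28 to 123 reads and CUBN, the endocytic receptor cubilin, from 34 to 61 reads. For both, the control libraries alone did not pass the filter and the TGF-β1 libraries did. LRP2, the endocytic receptor megalin, had 0 reads in every library and the brush border enzyme ANPEP had 3 reads in each group.

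AMTN, ODAPH and SPP1 passed the count filter, and the other 7 members did not. AMTN and ODAPH were higher and SPP1 was lower after TGF-β1, with no overlap between groups, which 27.9% of tested genes showed upwards and 27.7% downwards. Of the 14860 genes tested, 44.3% were called changed at an adjusted p under 0.05, with 22.2% higher and 22.1% lower. With total counts in place of trimmed mean (TMM) scaling, the median over all genes, on the log2 scale, moved from 0.0063 to -0.10, and 14.4% of genes were called higher and 30.9% lower. In bulk libraries, fewer cells making a transcript and less of it per cell cannot be told apart.

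AMTN encodes amelotin, an enamel protein that maturation-stage ameloblasts deposit at the surface of the forming enamel. Its reads were 45, 63 and 51 in the control libraries and 8033, 6161 and 5352 in the TGF-β1 libraries. In CPM, the counts of a gene per M of the library's scaled depth, the control libraries were at 1.99, 2.58 and 2.17 and the TGF-β1 libraries at 308.5, 254.8 and 255.5. Every TGF-β1 library was far above every control library, and replicate 1 of TGF-β1 was the highest. The mean rose from 2.25 ± 0.298 CPM to 273 ± 30.8 CPM (SD, n = 3 each). The log2 fold change was 6.92 ± 0.12 (SE), a fold of 121, and it stayed between 6.81 and 7.03 under the 13 other ways of fitting the counts.

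ODAPH encodes the odontogenesis-associated phosphoprotein, which is needed for enamel maturation. The control libraries held 309, 373 and 392 of its reads and the TGF-β1 libraries 6536, 5363 and 4528. Scaled to depth, the values were 13.7, 15.2 and 16.7 CPM without and 251.02, 221.8 and 216.2 CPM with TGF-β1, and the groups did not overlap. The mean was 15.2 ± 1.51 CPM in control and 229.7 ± 18.7 CPM after TGF-β1 (SD, n = 3 each). The log2 fold change was 3.92 ± 0.09 (SE), a fold of 15.1, with a range of 3.81 to 3.99 over the alternatives. TGF-β1 replicate 1 was again the highest library.

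SPP1 moved the other way. The control libraries held 9755, 10685 and 9967 reads and the TGF-β1 libraries 6208, 4753 and 4269. Scaled to depth, these were 432.2, 436.8 and 424.7 CPM without and 238.4, 196.6 and 203.8 CPM with TGF-β1, so that all 3 TGF-β1 libraries lay below all 3 control libraries. The mean was 431 ± 6.09 CPM in control and 213 ± 22.4 CPM after TGF-β1 (SD, n = 3 each). The log2 fold change was -1.02 ± 0.07 (SE), a ratio of 0.494, with an adjusted p of 9.2e-07 in the edgeR quasi-likelihood test. Over the alternatives the log2 fold change was -1.12 to -0.97, and the largest adjusted p was 3.2e-05.

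**Figure D1:**
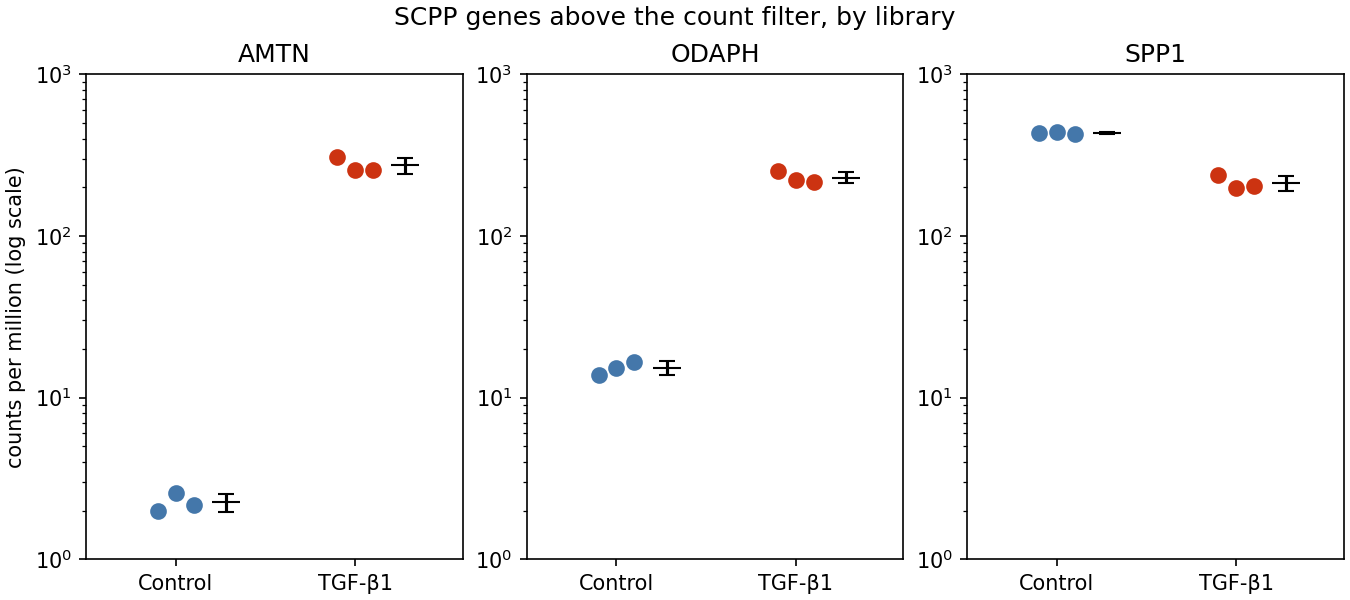
CPM (log axis) of AMTN, ODAPH and SPP1 in the 3 control (blue) and 3 TGF-β1 (red) libraries, 1 point for each library, with the group mean and SD in black to the right of the points. AMTN moved from about 2.25 to 273 CPM and ODAPH from about 15.2 to 229.7 CPM, while SPP1 moved from 431 to 213 CPM.

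Levels of different genes were compared per length, in TPM (transcripts scaled for gene length and depth). In control the order was SPP1 at 820 ± 10.8 TPM, ODAPH at 16.8 ± 1.97 TPM and AMTN at 7.42 ± 1.01 TPM (SD, n = 3 each). SPP1 was rank 149 of 36978 named genes on the primary chromosomes, ODAPH was rank 7398 and AMTN was rank 9720. After TGF-β1 the order was AMTN at 828 ± 69.4 TPM, SPP1 at 372 ± 28.1 TPM and ODAPH at 233 ± 12.8 TPM, at ranks 141, 390 and 703. The ranges of neighbours in the order did not overlap in either group. AMTN after TGF-β1 and SPP1 in control thus differed by less than the SD of the TGF-β1 libraries.

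The make-up of the family's RNA changed with these levels. The summed TPM of the 10 members was 844 ± 13.3 in control and 1434 ± 109 after TGF-β1 (SD, n = 3 each). SPP1 made up 97.1% ± 0.269 of this sum in control and 26.0% ± 0.390 after TGF-β1. The share of AMTN was 0.877% ± 0.107 in control and 57.7% ± 0.432 after TGF-β1, and that of ODAPH was 1.99% ± 0.211 and 16.3% ± 0.464. The shares after TGF-β1 were close between replicates although replicate 1 had the highest level of each of the 3 genes. For each library the ratio of AMTN to SPP1 in TPM was 0.00903 ± 0.00112 in control and 2.22 ± 0.0415 after TGF-β1. The ratio of AMTN to ODAPH was 0.443 ± 0.0584 in control and 3.55 ± 0.121 after TGF-β1.

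**Figure D2:**
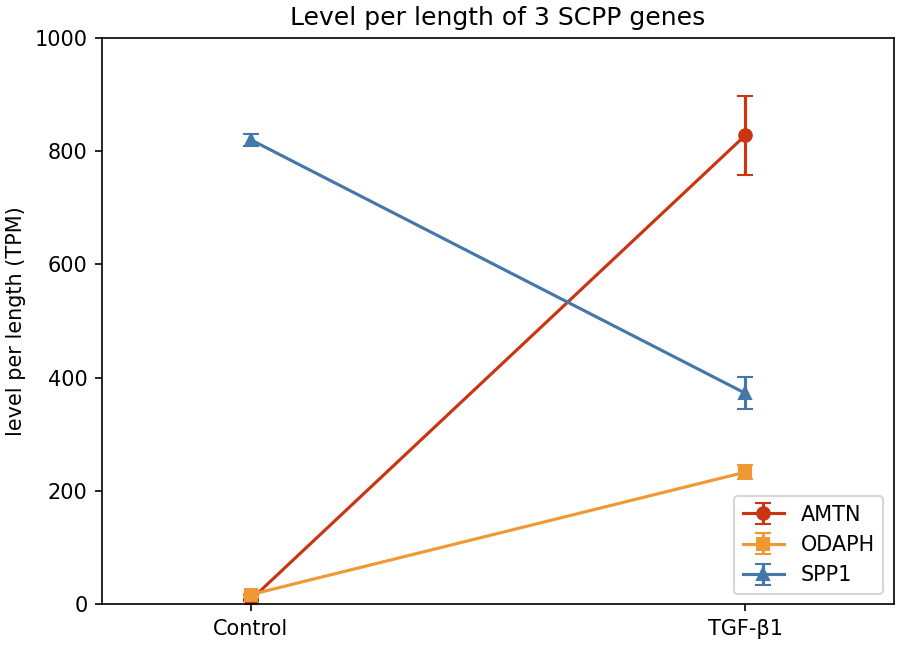
Level per length (TPM, linear axis from 0) of AMTN, ODAPH and SPP1 in control and after TGF-β1, shown as the mean and SD of 3 libraries, with lines joining the 2 means of a gene. SPP1 was the highest in control at 820 TPM and AMTN the highest after TGF-β1 at 828 TPM.

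The other 7 members had few or no reads. DMP1 and IBSP, which encode acidic proteins of bone and dentin, had 0 reads in all 6 libraries. A count of 0 allows up to 3 reads, which over the summed named counts of a group is 0.0442 CPM in control and 0.0406 CPM after TGF-β1. AMBN, which encodes the enamel matrix protein ameloblastin, had 1 read in TGF-β1 replicate 1 and none elsewhere. MEPE, which encodes a bone matrix protein involved in phosphate handling, was at 0 in the control libraries and at 2, 1 and 0 reads in the TGF-β1 libraries, which is not above the limit of a count of 0. These 4 genes were not detectably different at this depth.

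ODAM, SPARCL1 and ENAM had enough reads to give a ratio. ODAM encodes a protein of maturing enamel and of the gum attachment. It had 0 reads in every control library and 2, 3 and 1 reads after TGF-β1, at least 1.84-fold higher when the control group is set at the limit of 3 reads. This bound takes the 6 reads after TGF-β1 as exact, and the lower limit of the 95% exact interval of the ratio was 1.08. SPARCL1, a secreted relative of SPARC, was at 0, 1 and 3 reads without and at 8, 12 and 3 reads with TGF-β1, a ratio per named count of 5.29 (95% exact interval 1.81 to 21.04). TGF-β1 replicate 3 was barely above control replicate 3, at 0.143 against 0.128 CPM. Without control replicate 1 the ratio was 3.58, without control replicate 3 it was 14.2, and with the other libraries left out in turn it lay between these values. ENAM, which encodes the largest enamel matrix protein, had 4, 4 and 3 reads without and 1, 3 and 2 reads with TGF-β1. Its ratio was 0.502 (0.152 to 1.48), with an interval that includes 1. For ENAM, TGF-β1 replicate 2 was barely below control replicate 3, at 0.124 against 0.128 CPM.

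For ODAM, SPARCL1 and ENAM the groups did not overlap in CPM, and the two-sided exact permutation test gave 0.1, the smallest p that 3 libraries against 3 allow. Of the 11084 genes with a read that did not pass the filter, 4.16% were higher and 7.97% lower without overlap. Without the filter on low counts the adjusted p in edgeR was 0.00625 for SPARCL1, 0.065 for ODAM and 0.518 for ENAM. In that fit 26.8% of 25944 genes were called, 13.6% higher. The intervals and limits cover counting error only, since PCR copies were not told apart from separate molecules.

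The reads of the genes between and around ODAM, AMTN, AMBN and ENAM were then listed. The span from ODAM to ENAM holds 11 named genes, most of them other SCPP genes of milk, saliva and tear proteins. Without AMTN, the other 10 had 4, 4 and 8 reads in the control libraries and 27, 38 and 32 in the TGF-β1 libraries. Every TGF-β1 library was above every control library. The ratio per named count was 5.58 (95% exact interval 3.27 to 10.1), with 8 genes at more reads after TGF-β1, 1 at fewer and 1 equal. Among all genes with a read under the filter, 37.9% had more reads after TGF-β1. The 10 named genes on the far side of ODAM in the window had 1 read in control and 2 after TGF-β1.

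CSN3 and FDCSP, which lie side by side next to ODAM, had most of these reads. CSN3 encodes κ-casein, a milk protein, and was at 0, 0 and 2 reads without and at 12, 11 and 14 with TGF-β1, a ratio of 17.01 (4.39 to 145.7). It was the only other SCPP gene that passed the filter, which it did through its reads in the TGF-β1 libraries alone, so the direction of its call was fixed by the filter and no p is given. Its fitted log2 fold change of 3.97 ± 0.74 (SE) was 6.64 without control replicate 3, the library with both of its control reads, and without TGF-β1 replicate 1 it was not kept by the filter. FDCSP, a small secreted protein of follicular dendritic cells and of the gum, was at 0 without and at 5, 12 and 7 reads with TGF-β1, at least 7.36-fold higher when the control group is set at the limit of 3 reads, with a lower limit of 5.54 for the 95% exact interval of the ratio. MUC7, a salivary mucin that lies between FDCSP and AMTN, was at 0, 0 and 2 reads without and at 4, 5 and 5 with TGF-β1, a ratio of 6.44 (1.48 to 58.4).

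Of the 13 other SCPP genes of chromosome 4 examined, 12 did not pass the filter and 5 had no read in any library, among them the milk caseins CSN1S1 and CSN2 and the salivary genes STATH, HTN1 and HTN3. The summed reads of the 13 genes were 0 to 5 in a control library and 23 to 32 in a TGF-β1 library. The 3 salivary genes each had 2 entries in the tables.

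**Figure D3:**
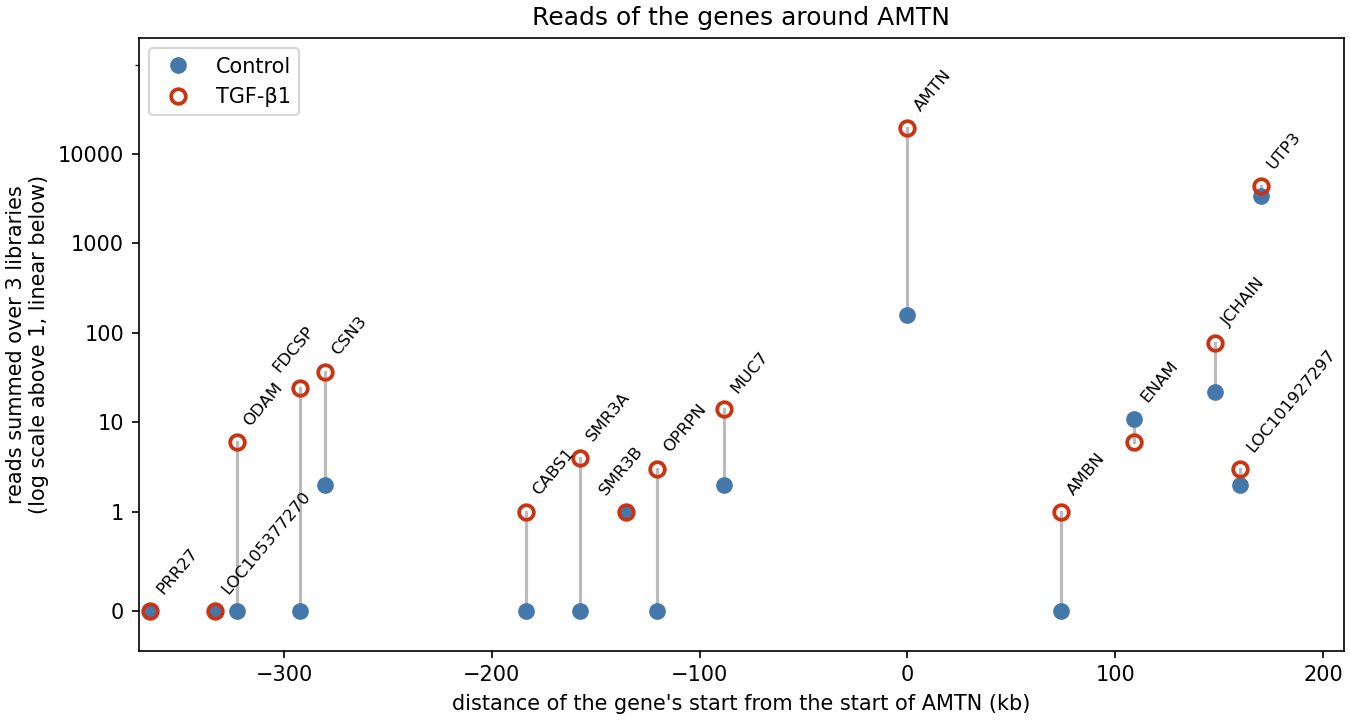
Reads summed over 3 control libraries (filled blue) and 3 TGF-β1 libraries (open red) for each named gene around AMTN, against the distance of its start from the start of AMTN (kb), with a grey line joining the 2 groups and a vertical axis that is linear below 1 read and logarithmic above. AMTN went from 159 to 19546 reads, CSN3 from 2 to 37 and FDCSP from 0 to 24, while ENAM went from 11 to 6.

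In the windows of 500 kb on either side of the 3 position groups there were 64 other named genes, of which 25 were tested. Of these, 12 were called higher and 7 lower, and 6 were not called, where 22.2% of all genes tested were higher and 22.1% lower. With total counts in place of TMM, 8 were called higher and 7 lower, beside 14.4% and 30.9% of all genes tested. Around ODAM to ENAM, 6 of 8 tested genes were higher and 1 lower. The 6 include CSN3 and JCHAIN, which passed the filter through their TGF-β1 libraries. Both also enter the total called higher and the median of this window. Around ODAPH, 5 of 7 were higher and 2 lower, and around SPARCL1 to SPP1, 1 of 10 was higher and 4 lower. The median log2 fold change was 0.29 in the first window, 0.21 in the second and -0.17 in the third, beside 0.0063 over all genes tested.

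AMTN and ODAPH were chosen for their large rises, so smaller changes beside them are no finding. CSN3 at 3.97, JCHAIN at 1.78 and CDKL2 at -1.38 on the log2 scale were larger in size than SPP1 at -1.02. JCHAIN, which encodes the joining chain of secreted antibodies and lies just beyond ENAM, was at 6, 3 and 13 reads without and at 30, 31 and 17 with TGF-β1. Its log2 fold change was 1.78 ± 0.42, and 2.47 without control replicate 3, and like CSN3 it passed the filter through the TGF-β1 libraries. UTP3, a ribosome biogenesis gene beyond JCHAIN, rose by 0.37 ± 0.06 on the log2 scale (adjusted p = 0.00054 in edgeR).

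CDKL2, a protein kinase gene on the minus strand whose start lies 75.5 kb beyond the start of ODAPH, was at 85, 108 and 116 reads without and at 48, 37 and 35 with TGF-β1. It was lower in every TGF-β1 library, with a log2 fold change of -1.38 ± 0.17 (edgeR adjusted p = 6.9e-05). On the other side of ODAPH, THAP6 had a log2 fold change of 0.18 ± 0.07 (edgeR adjusted p = 0.0487), and this call was lost under 10 of its 13 alternatives, where the adjusted p reached 0.417. RCHY1, a ubiquitin ligase gene whose entry overlaps that of THAP6 on the other strand, rose by 0.54 ± 0.06 (edgeR adjusted p = 2.0e-05), and reads in the overlap may belong to either gene. PKD2, the polycystin gene that follows SPP1, fell by 0.38 on the log2 scale (SE 0.06, edgeR adjusted p = 0.00028). NUDT9, before SPARCL1, was not called, with a log2 fold change of 0.11 ± 0.07.

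**Figure D4:**
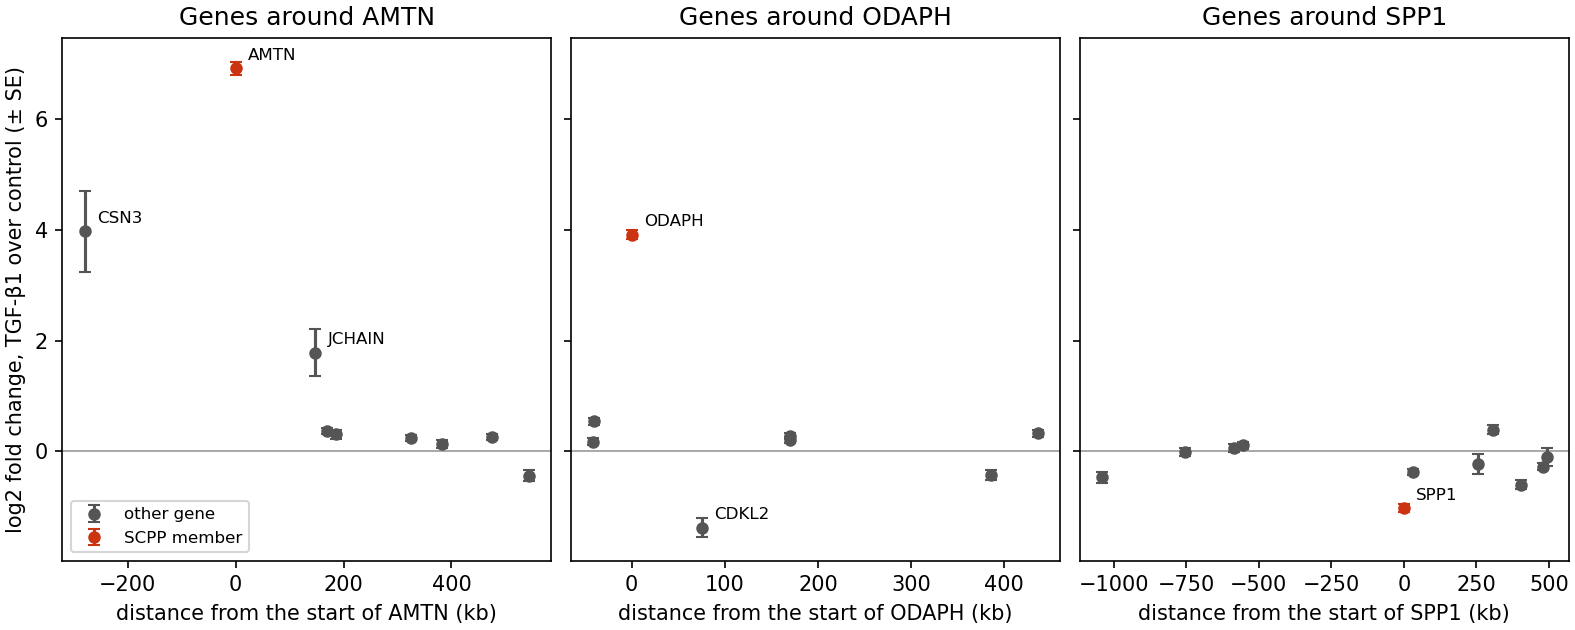
Log2 fold change (TGF-β1 over control, with SE) of each tested gene around AMTN, ODAPH and SPP1, against the distance of its start from the start of that gene (kb), with SCPP members in red and other genes in grey. AMTN at 6.92 and ODAPH at 3.92 stand above their tested neighbours, of which CSN3 at 3.97 and JCHAIN at 1.78 are the highest around AMTN, and SPP1 at -1.02 lies below its tested neighbours.

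Enamel genes other than the SCPP genes of chromosome 4, most of them disease genes of enamel, showed both directions. Of 22 genes 13 were tested, with 7 higher, 4 lower and 2 not called, and a median log2 fold change of 0.23. The share called was 84.6%, beside 44.3% of all genes tested (22.2% higher and 22.1% lower). AMELX, MMP20 and KLK4, which encode the main enamel matrix protein and the proteases that remove it, had 0 to 3 reads in either group. LTBP3, which binds latent TGF-β in the matrix, rose by 1.19 ± 0.05 (edgeR adjusted p = 1.9e-08). LAMA3, a laminin chain of epithelial basement membranes, had a log2 fold change of -2.08 ± 0.10 (edgeR adjusted p = 6.4e-08). COL17A1, a hemidesmosome collagen and one of the 4 lower, had a log2 fold change of -1.60 ± 0.42. It passed the filter through its control libraries alone, so the direction of its call was fixed by the filter and no p is given. Without control replicate 1 its log2 fold change was -1.29 and it was not called.

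A list of 14 genes held the FAM20 family and proteases, some of which act on SCPP proteins. Of the 14 genes, 9 were tested, with 4 higher, 2 lower and 3 not called (median log2 fold change 0.06). The share called was 66.7%, beside 44.3% of all genes tested (22.2% higher and 22.1% lower). FURIN, a proprotein convertase, went from 45.2 ± 1.32 to 134.3 ± 8.59 CPM, which is on the log2 scale a change of 1.57 ± 0.06 (edgeR adjusted p = 1.1e-08). TLL1, a protease of the BMP1 type, rose by 1.65 ± 0.10 (edgeR adjusted p = 2.9e-07). MMP9, a gelatinase and one of the 4 called higher, had a log2 fold change of 1.65 ± 0.30. Its control libraries alone did not pass the filter and its TGF-β1 libraries did, so no p is given. PHEX, a membrane peptidase that cleaves SCPP peptides, had a log2 fold change of -1.48 ± 0.19 (edgeR adjusted p = 9.3e-05). FAM20C, the kinase that phosphorylates these proteins, was not called. It had 4 entries in the tables, and its log2 fold change was -0.18 with an SE of 1.24, so that its value is uncertain.

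Of 18 regulators of mineral and bone, 11 were tested, with 4 higher, 1 lower and 6 not called (median log2 fold change 0.33). At 45.5%, the share called was near the 44.3% of all genes tested (22.2% higher and 22.1% lower). VDR, the vitamin D receptor, went from 12.7 ± 0.921 to 33.5 ± 1.56 CPM, which is on the log2 scale a change of 1.40 ± 0.07 (edgeR adjusted p = 8.7e-08). RUNX2, a transcription factor of osteoblasts, had a log2 fold change of -0.41 ± 0.08 (edgeR adjusted p = 0.0017). SP7, DLX5 and MSX2, other transcription factors of bone, had at most 1 read in all.

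The receptors of osteopontin and of other proteins with an RGD site were tested for 8 of 11 genes, and 4 were higher and 4 lower (median log2 fold change 0.26). Over all genes tested, 22.2% were higher and 22.1% lower. ITGAV, the αv integrin chain, went from 727 ± 28.9 to 1418 ± 163.0 CPM, which is on the log2 scale a change of 0.96 ± 0.08 (edgeR adjusted p = 4.2e-06). ITGB8, a chain that pairs with αv and binds latent TGF-β, went from 223 ± 4.44 to 15.3 ± 0.873 CPM, which is on the log2 scale a change of -3.87 ± 0.06 (edgeR adjusted p = 7.2e-11). Of 7 genes of the SPARC family, to which SPARCL1 is related, 4 were tested and 3 were higher (median log2 fold change 0.59). The largest rise in that family was 0.93 ± 0.05 for SPOCK1, a matrix proteoglycan (edgeR adjusted p = 1.1e-07). Counting each gene once, the related lists held 83 genes, of which 45 were tested and 73.3% called, beside 44.3% of all genes tested. The lists were chosen with earlier results of these data known, so this share and those of the single lists are no test. The called genes include CSN3, MMP9 and COL17A1, which passed the filter through a single group.

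**Figure D5:**
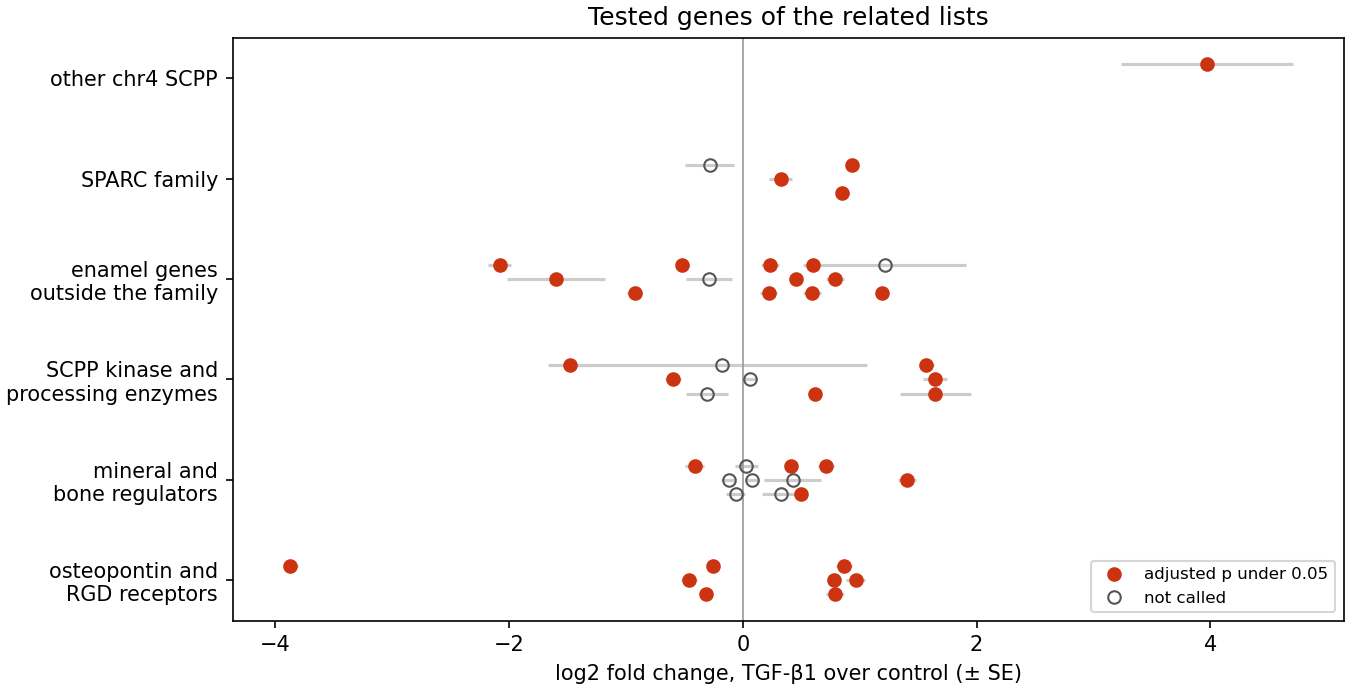
Log2 fold change (TGF-β1 over control, with SE) of each tested gene in 6 related lists, 1 row for each list, with called genes in filled red and genes not called as open circles. The rows spread to both sides of 0 except the single tested gene of the other SCPP genes, CSN3 at 3.97, and they reach from -3.87 for ITGB8 to 3.97.

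Markers of the cell types that normally make SCPP proteins were compared in the same libraries. Of 7 ameloblast markers, AMTN alone passed the filter, and AMELX, AMBN, MMP20 and KLK4 were at or near 0. The remaining markers went opposite ways on few reads, ODAM from 0 to 6 and ENAM from 11 to 6. The ameloblast list summed to 51 to 67 reads per control library and 5356 to 8038 per TGF-β1 library. Most of these were reads of AMTN, which went from 159 to 19546 over the group. Of 6 osteoblast markers, SP7 had 1 and 0 reads, BGLAP 7 and 8, ALPL 4 and 8 and IBSP none in control and after TGF-β1, while COL1A1, a collagen of fibroblasts and bone, rose by 3.30 ± 0.06 (edgeR). RUNX2, the sixth, had 5802 reads without and 4407 with TGF-β1 and was called lower. The osteoblast list summed to 2226 to 2744 reads per control library and 5972 to 7898 per TGF-β1 library, where COL1A1 went from 1692 to 16811 reads over the group. Of 4 fibroblast markers, PDGFRB rose by 3.38 ± 0.18 and LUM had a log2 fold change of -0.28 ± 0.07 in edgeR, while PDGFRA and DCN had at most 12 reads in a group, and the list summed to 1327 to 1606 reads per control library and 1209 to 1475 per TGF-β1 library. The 3 endothelial markers summed to 21 to 36 reads per control library and to 0 in every TGF-β1 library. The leukocyte markers CD68 and CD14 were lower after TGF-β1, PTPRC had 2 reads in each group, and the list summed to 2229 to 2540 and 1288 to 2221 reads. The part of other cell types in the changes of the members was not tested.

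The genes whose pattern over the 6 libraries was most like each of the 3 members were found by the root mean square difference of log2 CPM, after the control mean of each gene was subtracted, among the 12848 genes whose mean reached 1 CPM. This is a description, and the libraries fall into 2 groups. For AMTN the nearest included CGB8 at 0.287, CGB3 at 0.618, CHRNA9 at 0.793 and FOXS1 at 0.95. CGB8 went from 0.326 to 52.2 CPM, and CGB3, CHRNA9 and FOXS1 were under 0.1 CPM in control. All of these reached a mean of 1 CPM through their TGF-β1 libraries. Their control values are so low that their likeness to AMTN depends on the prior count. CGB8 and CGB3 are near-identical copies of the chorionic gonadotropin β gene, so their values are uncertain.

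ODAPH had closer neighbours in pattern. These were PLEKHG4B at 0.0896, MMP2 at 0.173, LOC105372663 at 0.175, EGR2 at 0.194 and GASK1B at 0.210. PLEKHG4B went from 1.45 ± 0.124 to 21.4 ± 1.97 CPM, and MMP2, a gelatinase, from 0.453 ± 0.0479 to 6.24 ± 0.720 CPM. For SPP1 the nearest were FOXA1 at 0.0392, ANXA3 at 0.0484, L1CAM at 0.0547, TM4SF1 at 0.0583 and MELTF at 0.0617. L1CAM, a cell adhesion molecule, went from 411 ± 19.0 to 195 ± 14.0 CPM.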

How the data were processed

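Poly(A) RNA of 6 HK-2 libraries was sequenced as paired ends. The authors deposited 1 table for each library with raw counts per gene, and TPM and FPKM values that they computed from these counts and the gene lengths. The submitters' processing notes name CASAVA, featureCounts 2.0.1, DESeq2 1.16.1 and hg38. The aligner and the annotation release are not given in the sources used here. Broken records, 7 in each table, were rejoined. Entries without a gene name (598, 0.396% to 0.464% of counts) were left out. FPKM values were used only to check the tables.

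Genes were filtered with filterByExpr (minimum count 10), scaled with TMM and tested with the two-sided quasi-likelihood F test of edgeR 4.0.16 with robust dispersion, with Benjamini-Hochberg adjustment over the 14860 named genes tested. The SE was the size of the log2 fold change divided by the root of F. CPM used the TMM-scaled library size. Each ± after a log2 fold change is its SE. Genes under the filter were compared by summed reads with 95% exact binomial intervals and by exact permutation of CPM. Log2 CPM for the pattern search had a prior count of 0.5. The alternatives were DESeq2 1.42.0, limma-voom (limma 3.58.1), other scalings, other filters, a replicate block and each library left out in turn. Scripts were tested on simulated data. R 4.3.3, Python 3.11.15, pandas 2.3.3 and scipy 1.17.1 were used.

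The members and the lists were chosen with earlier results of these data known. Besides the members, the text names other chromosome 4 SCPP genes with at least 10 reads, the nearest tested gene on each side of a position group, called neighbours with a log2 fold change of at least 1 in size, the list genes called at that size (at most 6 a list) with the largest rise and fall of each list, and the 5 genes most like each called member. One gene of this rule is not reported here. RCHY1, UTP3, FAM20C, and genes named as having few reads, as markers or as examples were named after their values were seen. Protein features were not analysed here.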

Additional observations from a re-analysis of the deposited data

How the results depend on the processing

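The log2 fold change of SPP1 had the same direction and the same side of the threshold in all 13 alternatives. AMTN and ODAPH were chosen for their rises, so their ranges over the alternatives describe the size of the rise and are no test of it. Of 254 alternative values for 20 other named genes, 243 did so and 11 lost the call, 10 of them for THAP6 and 1 for COL17A1. The cause was not tested. No value changed direction. The correlations of deviations did not settle whether the replicate numbers pair the libraries. They were 0.111, -0.0117 and 0.0762 between same-numbered libraries and -0.149 to 0.0883 between libraries of different numbers. Not every library correlated best with its own number. With a replicate block 6790 genes were called against 6582 without it (1.03 times), the log2 fold change of SPP1 was -1.02 and still called, and 12 neighbours were called higher and 7 lower as before. DESeq2 called 5784 genes. Without the filter on low counts SPARCL1 was also called higher. With a prior count of 2 in place of 0.5, 3 of the 5 genes most like AMTN were shared, and CHRNA9 was among those lost. For ODAPH 4 of the 5 were shared, with MMP2 lost, and for SPP1 all 5. Depth limits the other members: with 3 libraries in each group and at most 27 reads in all, SPARCL1, ENAM, ODAM, MEPE and AMBN rest on few reads. COL17A1 and MMP9 rest on 58 and 34 control reads.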
